A study of Homo sapiens with 6 samples.

Results

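The G2 and mitosis genes are the genes a dividing cell uses to enter mitosis, to attach and separate its chromosomes and to cut itself apart. The list held 44 genes, given by name, and each was looked for among the gene names of the expression table, where 1 row can join the names of several genes. All 44 were found, in 44 of 27918 rows, and all 44 were among the 16028 rows with a mean of at least 0.1 FPKM that were tested. FPKM is the number of fragments per kilobase of transcript, scaled to the mapped fragments of the library, so that levels can be compared between genes of different length.

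The cells were HCT-116, a human cell line established from a colorectal carcinoma. The study transfected them with an antisense oligonucleotide (GapmeR) against the long noncoding RNA CASC9 (GapC9) or with a control GapmeR (GapNC), each at 10 nM, and sequenced 3 libraries per group to compare the expression profiles of the knockdown and the control cells. The study's text gives 24 h after transfection in its results and 48 h in its methods, so the time of harvest is uncertain. The labels name no other difference between the groups, and both had received a transfected oligonucleotide. The study's methods say that experiments were in general done at least in triplicate, but not whether the 3 libraries of a group came from separate cultures, so p-values measure the spread between these libraries, which may be technical.

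Entry into mitosis is driven by the kinase CDK1 with its cyclins. WEE1 and PKMYT1 hold CDK1 inactive by phosphorylation, and the CDC25 phosphatases release it. The spindle checkpoint then delays anaphase until every kinetochore is attached, after which CDC20 turns on the anaphase-promoting complex (APC/C) and cyclin B and securin are destroyed. Many of these genes are transcribed late in the cell cycle, through promoters that hold CCAAT boxes and a cell cycle genes homology region (CHR) bound by MuvB complexes with MYBL2 and FOXM1. Their RNA in a culture thus also depends on the share of dividing cells, and in bulk RNA fewer dividing cells and less RNA per cell cannot be told apart. From flow cytometry the study reports that HCT-116 cells given the GapC9 oligonucleotide arrested in G2/M, and it also reports that they proliferated less. How those assays relate to the RNA values here was not tested.

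The promoters of 4 of these genes are shown because they hold the CHR and CCAAT letters that this class of genes shares. The sequences are RefSeq's, on build GRCh38.p14, and run 5′ to 3′ on the strand of the gene over the 250 bases before its annotated start. Capitals mark CHR (TTTGAA or TTTAAA) and CCAAT on either strand, so that TTCAAA and ATTGG are matches read from the other strand. The CDC20 promoter lies on the plus strand at chr1:43358731-43358980, that of CCNB1 on the plus strand at chr5:69166900-69167149, that of CCNB2 on the plus strand at chr15:59104896-59105145 and that of MKI67 on the minus strand at chr10:128126424-128126673.
CDC20: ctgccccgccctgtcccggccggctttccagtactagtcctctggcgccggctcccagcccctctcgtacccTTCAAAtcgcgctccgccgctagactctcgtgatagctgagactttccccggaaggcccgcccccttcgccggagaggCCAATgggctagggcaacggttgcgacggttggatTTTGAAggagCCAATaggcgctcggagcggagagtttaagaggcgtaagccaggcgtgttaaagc
CCNB1: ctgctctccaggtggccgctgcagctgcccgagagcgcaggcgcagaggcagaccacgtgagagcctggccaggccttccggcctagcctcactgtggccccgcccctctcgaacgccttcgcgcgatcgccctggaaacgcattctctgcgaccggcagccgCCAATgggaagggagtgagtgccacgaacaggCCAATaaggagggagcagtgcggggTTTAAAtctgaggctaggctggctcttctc
CCNB2: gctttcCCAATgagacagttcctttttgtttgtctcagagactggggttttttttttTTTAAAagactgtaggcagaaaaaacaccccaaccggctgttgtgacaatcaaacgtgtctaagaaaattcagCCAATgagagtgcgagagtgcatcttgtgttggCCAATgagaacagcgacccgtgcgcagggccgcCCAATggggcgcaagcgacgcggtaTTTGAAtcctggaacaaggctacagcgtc
MKI67: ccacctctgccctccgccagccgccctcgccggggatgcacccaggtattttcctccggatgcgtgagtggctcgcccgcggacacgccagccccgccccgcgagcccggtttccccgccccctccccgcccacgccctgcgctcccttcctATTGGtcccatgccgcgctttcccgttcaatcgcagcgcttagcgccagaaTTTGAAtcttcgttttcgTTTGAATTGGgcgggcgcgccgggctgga
In CCNB1 the single CHR begins 30 bases before the start and its CCAAT boxes 87 and 55 bases before it. In CCNB2 a CHR begins 29 bases before the start, behind CCAAT boxes at 87 and 54 bases. MKI67 holds CHR matches 47 and 29 bases before the start, of which the latter shares 1 base with a CCAAT box read from the other strand. In CDC20 the nearer CHR begins 65 bases and the nearer CCAAT box 55 bases before the start.

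The promoter table, with windows of 300 bases from 250 before to 50 after each start, matched 35 of the 44 genes. The genes with no entry were WEE1, BUB3, BIRC5, TTK, FOXM1, TPX2, AURKA, PKMYT1 and UBE2C. A CHR stood in a window of 29 of the 35 (82.9%), against 27.9% of the 27305 genes in the table. CCAAT was found for 27 of the 35 (77.1%), against 39.7%, and at least 2 CCAAT boxes for 18 (51.4%), against 12.9%. Both motifs stood together for 20 (57.1%), against 11.2% of all genes. With TTTGAA alone as the CHR the count was 24 (68.6%), against 18.2%. The windows of the members had a median GC content of 62.0%, against 58.3% for all genes. A match is a description of the letters and not a bound site. The 20 genes with both motifs had a median log2 fold change of −0.022 between GapC9 and GapNC, and the 15 without both had 0.081.

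The members were well expressed in all 6 libraries and none was listed at 0. Their median level was 21.4 FPKM, against 2.38 FPKM over all rows tested, with a range of means from 3.31 FPKM for CDC25C, a phosphatase that activates CDK1, to 134 FPKM for CDC20, the activator of the APC/C. Behind CDC20 came CCNB1 (cyclin B1) at 89.1 FPKM, UBE2C (the ubiquitin-conjugating enzyme of the APC/C) at 56.0 FPKM and MKI67 (the proliferation marker Ki-67) at 53.4 FPKM. Summed FPKM was 152661 to 166816 per library, and the steps between low values came to 22.9 to 24.2 M (mega) fragments per library if the commonest step is 1 fragment. The targeted RNA itself gave no check of the labels. CASC9 was listed at 0, 0.0108 and 0 FPKM in the GapNC libraries and at 0.0528, 0.107 and 0 FPKM in the GapC9 libraries (two-sided exact permutation test, p = 0.4, where 0.1 is the smallest p that 3 against 3 allows). The control libraries were already at or near 0, so neither these values nor the test could have shown a fall of CASC9. By RT-qPCR the study reports less CASC9 in HCT-116 cells given the GapC9 oligonucleotide. The groups are named here by their labels. The epithelial markers EPCAM (62.3 to 88.4 FPKM), KRT8, KRT18 and KRT19 were high and CDH1 was at 8.43 to 14.3 FPKM, CDX2 was at 1.59 to 3.79 FPKM, the intestinal markers VIL1 and KRT20 were at or near 0 (at most 0.0481 and 0.302 FPKM), and the endothelial and leukocyte markers stayed at or below 0.0467 FPKM. Of the fibroblast markers, COL1A2 and PDGFRB were near 0, COL1A1 was at 1.06 to 1.54 FPKM, COL3A1 at 3.03 to 4.13 FPKM, and DCN was not found under its symbol.

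None of the 44 genes differed between GapC9 and GapNC at an adjusted p under 0.05 (limma on log2(FPKM + 0.1), Benjamini-Hochberg adjustment over all 16028 rows). Of all rows, 6.99% passed, with 1.89% higher in GapC9 and 5.1% lower. The counts of all rows, 303 higher and 817 lower, became 483 and 427 when the libraries were scaled to a common median. The study's fold and p thresholds were applied here to the ratio of mean FPKM and the unadjusted p of limma. These are a ratio of 2 or more, or 0.5 or less, and a p under 0.05. They also took 0 of the 44, against 6.42% of all rows (2.1% higher and 4.32% lower). Since most rows lie below the members in level, the 6998 rows with a mean of at least the lowest member give a closer background. Of these, 60 were higher and 183 lower by the fold rule, and 8.45% passed the adjusted p. At an unadjusted p under 0.05 limma took 7 of 44 (15.9%), against 25.9% of all rows. Of these 7, CCNA2, CENPE and MKI67 were higher and PKMYT1, CDC25B, AURKB and CCNB1 were lower under the GapC9 label. Of the 6998 rows at the level of the members, 817 were higher and 1292 lower at this unadjusted p. For 15 genes (34.1%) every library of one group lay above every library of the other, against 34.2% of all rows. Of the 6998 rows, the closer background, 1109 were separated in this way as higher and 1599 as lower. The members were thus not separated more often than either background.

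The differences were small. The ratio of mean FPKM lay between 0.8 and 1.25 for 34 of the 44 genes, and it ranged from 0.531 (PKMYT1) to 1.61 (CCNA2). Log2 fold changes, written as GapC9 over GapNC, were above 0 for 20 genes and below 0 for 24, with a median of −0.0046 beside −0.076 over all rows tested. Their median size without sign was 0.19, beside 0.33 over all rows and 0.28 over the 6998 rows at least as high as the lowest member. The precision behind them was limited, and the 95% interval lay within a doubling or halving for 39 genes and within 1.5 times for 30. Scaling each library to a common median moved the median of all rows from −0.076 to 0.069 and that of the members to 0.14, so the sign of small differences depends on the scaling.

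**Figure D1:**
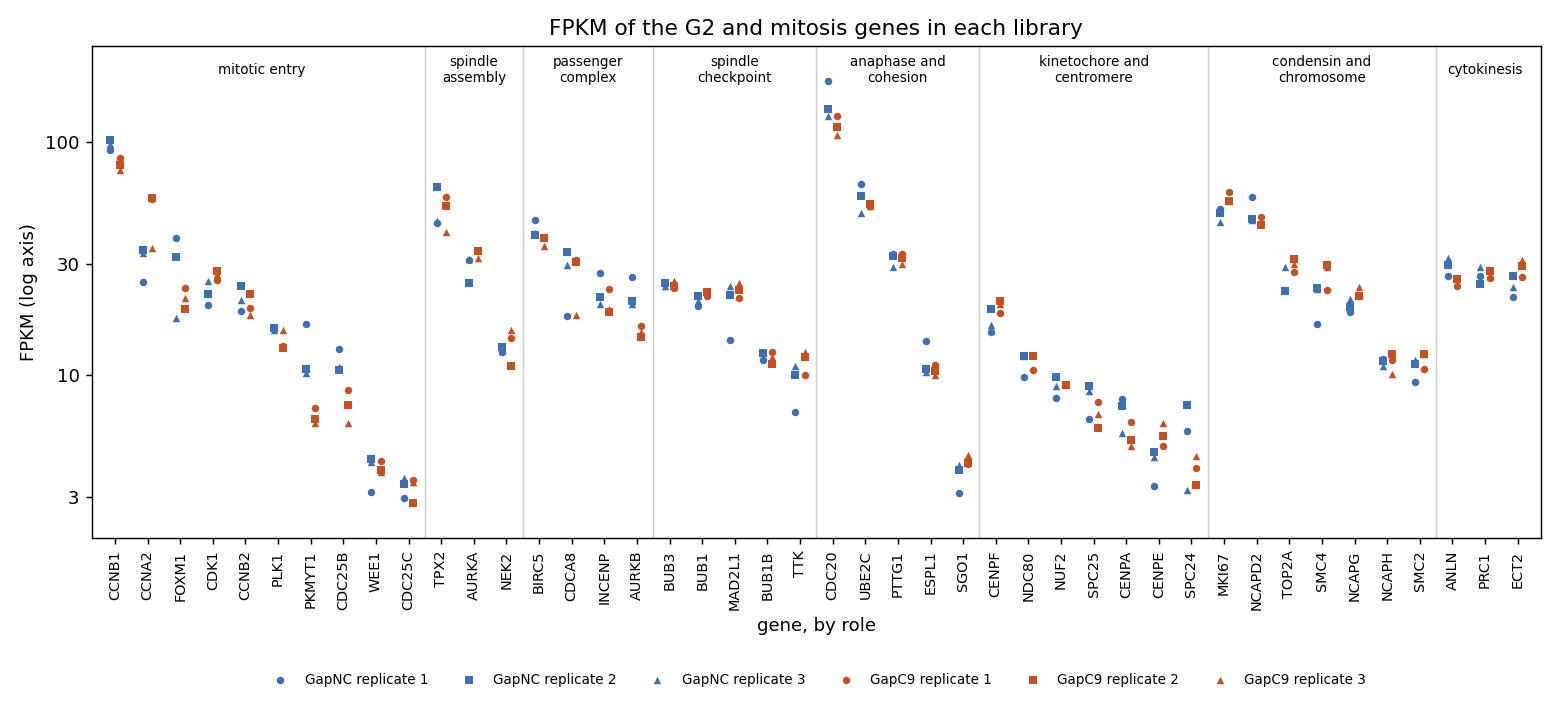
FPKM of the 44 G2 and mitosis genes in each library (log axis), grouped by role and ordered by level within a role, with GapNC in blue, GapC9 in orange and the replicate number as the symbol. CDC20 and CCNB1 are the highest, and the blue and orange points of most genes overlap.

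Among the genes of mitotic entry, CDK1, the kinase that starts mitosis, had 19.9, 22.2 and 25.4 FPKM in the GapNC libraries and 25.7, 28.0 and 27.2 FPKM in the GapC9 libraries. The groups did not overlap, although GapNC replicate 3 and GapC9 replicate 1 nearly touched, and the log2 fold change was 0.26 ± 0.12 (limma, SE, n = 3 per group, adjusted p = 0.22). CCNB1, the main mitotic cyclin, had 92.5, 102 and 98.3 FPKM in GapNC and 85.4, 79.8 and 76.4 FPKM in GapC9. All GapC9 libraries lay below all GapNC libraries, by a log2 fold change of −0.28 ± 0.086 (limma, SE, adjusted p = 0.11). CCNB2, the other B-type cyclin, had a log2 fold change of −0.093 with overlapping libraries.

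CCNA2, cyclin A2, is the cyclin of S phase and early mitosis and was the member with the highest ratio. It falls outside the rule for naming genes and was chosen after its values were seen. Its level was 25.2, 34.4 and 33.6 FPKM in GapNC and 57.0, 57.8 and 35.2 FPKM in GapC9. Replicates 1 and 2 of GapC9 were high, whereas replicate 3 lay just above the highest GapNC library, and the log2 fold change was 0.66 ± 0.24 (limma, SE, adjusted p = 0.15). The gene lies on chromosome 4 (minus strand), from 121816444 to 121823933 (GRCh38, GENCODE release 29), where exons of EXOSC9 on the other strand overlap its exons, and whether the counting used strand is not given in the sources used here.

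PKMYT1, which encodes the membrane-bound kinase that inhibits CDK1, had the lowest ratio of all members. It was at 16.6, 10.6 and 10.2 FPKM in GapNC and at 7.20, 6.45 and 6.21 FPKM in GapC9. Every library labelled GapC9 lay below every GapNC library, with GapNC replicate 1 far above the other two. The log2 fold change was −0.87 ± 0.21 (limma, SE, adjusted p = 0.064), with a 95% interval from −1.38 to −0.36. Without GapNC replicate 1 it was −0.64, at an adjusted p of 0.043 by limma, so that leaving out this 1 library brought the gene past the threshold. PKMYT1 lies on chromosome 16 from 2968024 to 2980539, on the minus strand, and exons of KREMEN2 and PAQR4 overlap it on the other strand. Its transcripts had the highest GC content of the 44 genes, 66.4%. WEE1, the nuclear kinase that also inhibits CDK1, had a log2 fold change of 0.044 (95% interval −0.34 to 0.42).

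CDC25B, a phosphatase that activates CDK1, had 13.0, 10.6 and 10.8 FPKM in GapNC and 8.64, 7.48 and 6.22 FPKM in GapC9. No library of one group reached the other, and the log2 fold change was −0.62 ± 0.16 (limma, SE, adjusted p = 0.073). Its row joins CDC25B with LINC01730, AL109804.1 and AP5S1, so the value cannot be given to CDC25B alone. CDC25C had overlapping libraries and a log2 fold change of −0.025.

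PLK1, the polo-like kinase that promotes mitotic entry and spindle assembly, had 16.2, 15.9 and 15.7 FPKM in GapNC and 13.3, 13.1 and 15.6 FPKM in GapC9. The groups were narrowly separated, GapC9 replicate 3 lying just under the GapNC libraries, and the log2 fold change was −0.19 ± 0.10 (limma, SE, adjusted p = 0.31). Its row joins PLK1 with DCTN5 and AC008870.1. FOXM1, the transcription factor of many late cell cycle genes, had 38.7, 32.1 and 17.7 FPKM in GapNC and 23.7, 19.2 and 21.5 FPKM in GapC9. The control libraries spread widely around all 3 GapC9 libraries, and the log2 fold change of −0.39 had a 95% interval from −1.11 to 0.34 (limma adjusted p = 0.46). Over the 10 genes of mitotic entry, 3 log2 fold changes were above 0 and 7 below, with a median of −0.14. The median became 0.0044 with 5 above and 5 below under median scaling. After a correction for GC content it was −0.087, with 3 above and 7 below.

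**Figure D2:**
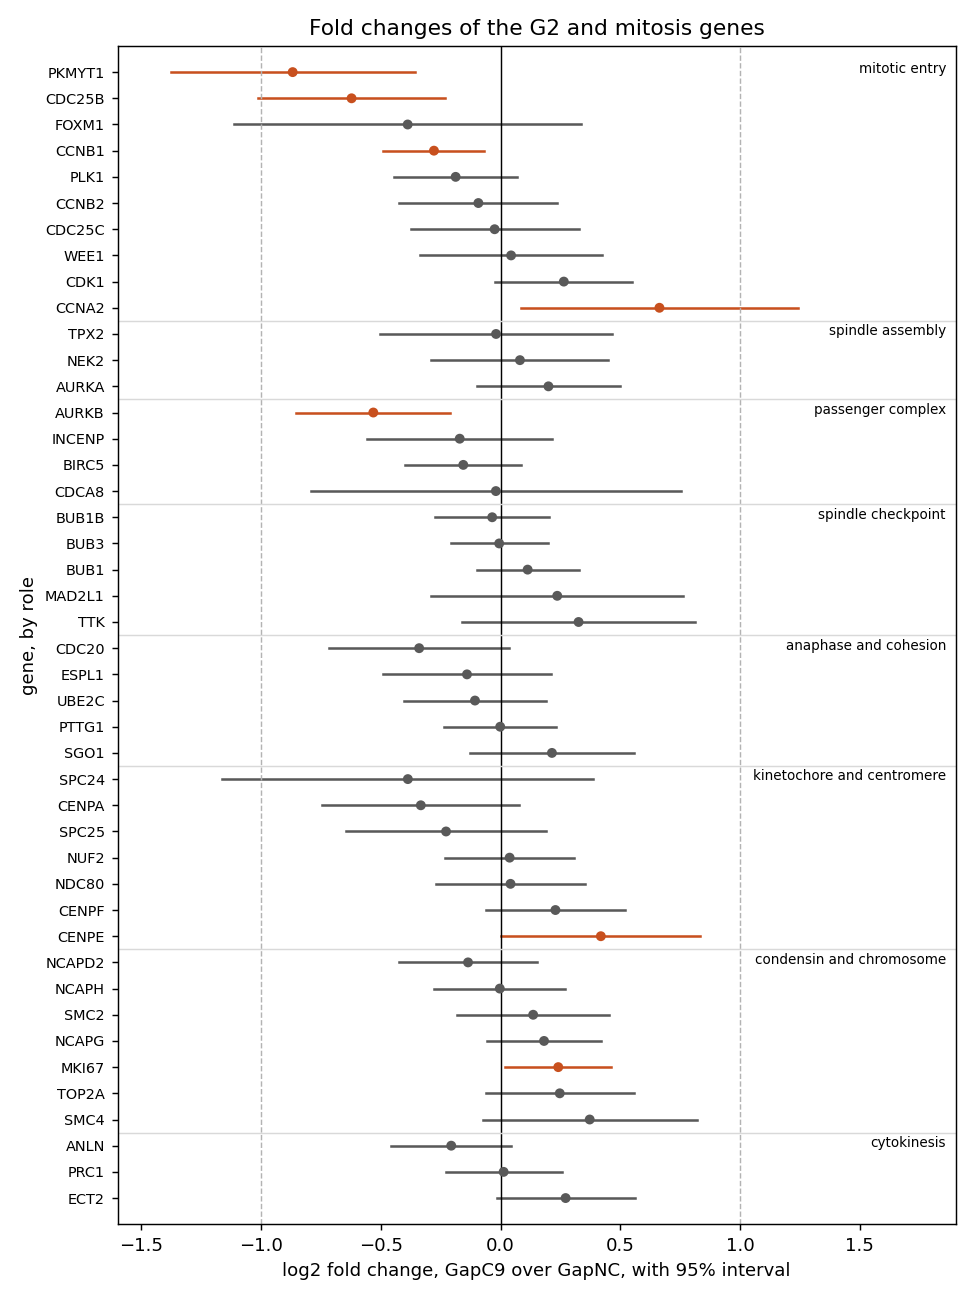
Log2 fold change of each member, GapC9 over GapNC, with its 95% interval from limma, by role. Orange marks the 7 genes with an unadjusted p under 0.05, none of which passed after adjustment, and the dashed lines mark a doubling and a halving.

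The spindle kinases and their activator showed no separation beyond the spread, apart from a narrow gap for AURKA. AURKA, the centrosomal kinase that builds the spindle poles, had 31.2, 24.9 and 31.7 FPKM in GapNC and 34.2, 34.2 and 31.9 FPKM in GapC9. GapC9 replicate 3 was barely above the highest control, and the log2 fold change was 0.20 ± 0.12 (limma, SE, adjusted p = 0.36). TPX2, which activates AURKA on spindle microtubules, had 44.9, 64.6 and 45.8 FPKM in GapNC and 58.4, 53.2 and 41.2 FPKM in GapC9. The libraries were intermixed, and the 95% interval of its log2 fold change ran from −0.51 to 0.47. NEK2, a centrosome kinase, had a log2 fold change of 0.081.

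In the chromosomal passenger complex, which corrects faulty attachments and later guides cytokinesis, the kinase AURKB had 26.4, 20.9 and 20.2 FPKM in GapNC and 16.2, 14.7 and 15.4 FPKM in GapC9. All libraries labelled GapC9 lay below all GapNC libraries, and the log2 fold change was −0.53 ± 0.13 (limma, SE, adjusted p = 0.068). BIRC5 (survivin), the most abundant subunit, had 46.6, 39.9 and 40.7 FPKM in GapNC and 39.0, 38.9 and 36.0 FPKM in GapC9. Its groups also did not overlap, but lay close together, with a log2 fold change of −0.16 ± 0.099 (limma, SE, adjusted p = 0.37). INCENP, the scaffold of the complex, and CDCA8 (borealin) had overlapping libraries, with log2 fold changes of −0.17 and −0.020. Thus all 4 subunits were below 0 on the unscaled values, with a median of −0.16. After the correction for GC content 2 were above 0 and 2 below, and under median scaling 1 was above and 3 below. AURKB lies on chromosome 17 (minus strand), from 8204733 to 8210600.

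No gene of the spindle checkpoint, which halts cells with unattached kinetochores, had separated groups. TTK, the checkpoint kinase also named MPS1, had 6.95, 10.0 and 10.9 FPKM in GapNC and 10.0, 11.95 and 12.6 FPKM in GapC9. GapNC replicate 1 was low and the other libraries overlapped, and the log2 fold change was 0.33 ± 0.20 (limma, SE, adjusted p = 0.36). BUB3, which carries the BUB kinases to kinetochores, was among the steadiest members, at 24.6, 24.9 and 24.1 FPKM in GapNC and 23.7, 24.2 and 25.5 FPKM in GapC9. Its log2 fold change was −0.0058, with a 95% interval from −0.21 to 0.20. BUB1B (BubR1), a subunit of the complex that inhibits CDC20, had 11.6, 12.4 and 12.5 FPKM in GapNC and 12.6, 11.1 and 12.01 FPKM in GapC9. These libraries overlapped, and the row joins BUB1B with BUB1B-PAK6 and PAK6. MAD2L1, another subunit of that inhibitor, and BUB1, the kinetochore kinase, had log2 fold changes of 0.24 and 0.11.

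CDC20, the target of that checkpoint, was the most abundant member, at 183, 139 and 130.3 FPKM in GapNC and 129.9, 116 and 108 FPKM in GapC9. The groups did not overlap, but GapNC replicate 3 and GapC9 replicate 1 were nearly equal and GapNC replicate 1 stood above all others. The log2 fold change was −0.34 ± 0.15 (limma, SE, adjusted p = 0.23), and −0.19 without GapNC replicate 1. The other genes of anaphase had log2 fold changes of −0.11 for UBE2C, −0.0016 for PTTG1 (securin) and −0.14 for ESPL1 (separase, the protease that cuts cohesin), with overlapping libraries. SGO1 (shugoshin), which protects cohesin at centromeres, had 0.21, with every GapC9 library above every GapNC library.

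At the kinetochore, CENPE, the motor protein that moves chromosomes to the spindle equator, had 3.34, 4.69 and 4.47 FPKM in GapNC and 4.98, 5.48 and 6.24 FPKM in GapC9. The libraries did not overlap, and the log2 fold change was 0.42 ± 0.17 (limma, SE, adjusted p = 0.19). CENPF, a large kinetochore protein, was the most abundant of this group, at 15.3, 19.2 and 16.4 FPKM in GapNC and 18.5, 20.7 and 20.3 FPKM in GapC9. GapNC replicate 2 overlapped the other group, and the log2 fold change was 0.23 ± 0.12 (limma, SE, adjusted p = 0.28). CENPA, the histone H3 variant of centromeres, had 7.89, 7.37 and 5.67 FPKM in GapNC and 6.26, 5.24 and 4.97 FPKM in GapC9. The groups overlapped through GapNC replicate 3, the log2 fold change was −0.33 ± 0.17 (limma, SE, adjusted p = 0.27), and the row joins CENPA with SLC35F6. The subunits of the NDC80 complex, which grips microtubules, had log2 fold changes of 0.041 (NDC80), 0.038 (NUF2), −0.23 (SPC25) and −0.39 (SPC24), and the 95% interval of SPC24 was wide, from −1.16 to 0.39.

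Among the genes that shape mitotic chromosomes, MKI67, whose protein coats them, had 51.7, 49.7 and 45.4 FPKM in GapNC and 61.0, 56.3 and 56.2 FPKM in GapC9. Every library labelled GapC9 lay above every GapNC library, by a log2 fold change of 0.24 ± 0.091 (limma, SE, adjusted p = 0.17). TOP2A, the topoisomerase that untangles sister chromatids, had 23.2, 23.0 and 29.2 FPKM in GapNC and 27.7, 31.5 and 29.9 FPKM in GapC9. GapNC replicate 3 fell among the GapC9 libraries, and the log2 fold change was 0.25 ± 0.13 (limma, SE, adjusted p = 0.28). SMC4, an ATPase of condensin, had 16.6, 23.6 and 23.5 FPKM in GapNC and 23.1, 29.8 and 29.2 FPKM in GapC9. GapNC replicate 1 was the lowest library and GapC9 replicate 1 overlapped the controls, with a log2 fold change of 0.37 ± 0.18 (limma, SE, adjusted p = 0.26). The other condensin subunits ranged from −0.14 (NCAPD2) to 0.18 (NCAPG) on the log2 scale. The median over the 7 genes was 0.18, with 5 above 0. After the correction for GC content the median fell to 0.081 with all 7 above 0, where 8284 of 15909 rows were above 0. NCAPD2 and SMC2 were then close to 0 (0.0019 and 0.0070). Under median scaling the median was 0.33, also with 7 above 0.

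For cytokinesis, ECT2, the exchange factor that activates RhoA at the cleavage furrow, had 21.8, 26.6 and 23.96 FPKM in GapNC and 26.5, 29.5 and 31.3 FPKM in GapC9. GapNC replicate 2 and GapC9 replicate 1 overlapped by a hair, and the log2 fold change was 0.27 ± 0.12 (limma, SE, adjusted p = 0.21). ANLN (anillin), which scaffolds the contractile ring, had 26.6, 29.8 and 31.8 FPKM in GapNC and 24.1, 26.02 and 26.2 FPKM in GapC9. Here the groups did not overlap, with a log2 fold change of −0.21 ± 0.10 (limma, SE, adjusted p = 0.27). PRC1, which bundles microtubules of the midzone, had a log2 fold change of 0.013 (95% interval −0.23 to 0.25).

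The fold changes of the members varied with the base composition of their transcripts. Across the 44 genes, Spearman's correlation of GC content with the log2 fold change was −0.785, and it was −0.257 across the 15909 rows tested with a known GC content. These correlations are descriptions, since all points share the same 6 libraries. Of the 22 members with a GC content under their median of 45.7%, 17 had log2 fold changes above 0, and of the 22 over it, 3. Their median log2 fold changes were 0.16 and −0.14. The ends of the order show it: CENPE and CDK1 had the lowest GC content (35.5% and 35.8%) and positive fold changes, and PKMYT1, with 66.4%, had the lowest.

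The same order of genes appeared within single libraries. The deviation of GapNC replicate 1 from the mean of the 6 libraries had a correlation of 0.833 with GC content across the members (0.513 across all rows), and this library was the highest for 13 members and the lowest for 16. GapC9 replicates 2 and 3 had correlations of −0.690 and −0.742, whereas GapC9 replicate 1 and GapNC replicate 3 had −0.175 and −0.102, and GapNC replicate 2 had 0.368. The deviations of a gene cancel over the 6 libraries, so a rising trend in a library brings falling trends in others. Without GapNC replicate 1 the correlation of GC content with the log2 fold change was −0.596 across the members and −0.0952 across all rows. Leaving out any of the other 5 libraries gave −0.713 to −0.824 across the members. The part of GC content in the differences of single members was not tested.

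**Figure D3:**
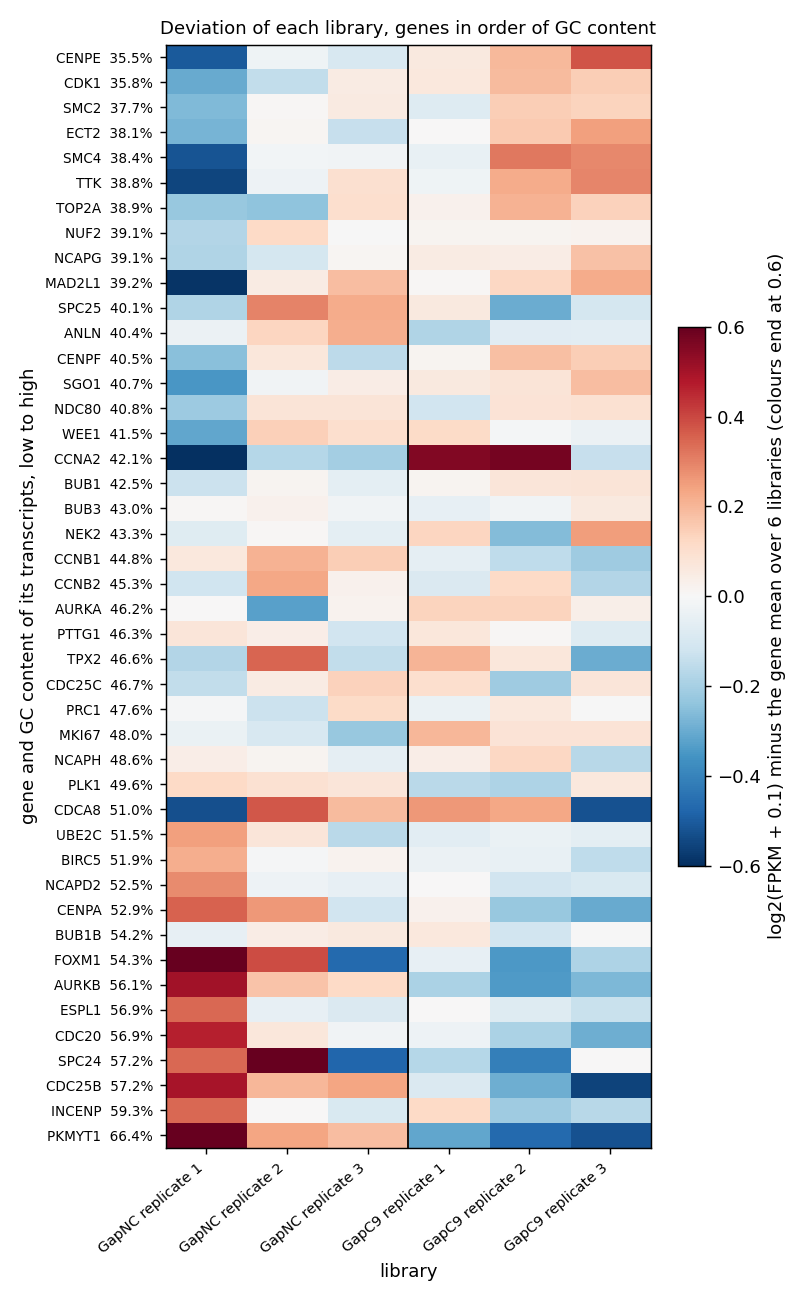
Deviation of each library from the gene's mean over the 6 libraries, on the log2(FPKM + 0.1) scale, with the 44 genes ordered by the GC content of their transcripts from low (top) to high (bottom). GapNC replicate 1 runs from low to high down the order, and GapC9 replicates 2 and 3 run the other way. Since the deviations of a gene cancel over the 6 libraries, these opposite trends are not independent.

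After each library's trend on GC content over all rows was removed by lowess, the correlation across the members was −0.468, and the 22 members with low GC content had a median log2 fold change of 0.078 and the other 22 one of 0.016. With the values corrected in this way, 4 of 44 members (9.09%) passed an adjusted p of 0.05 by limma, against 15.3% of the 15909 rows (7.23% higher and 8.1% lower). They were PKMYT1 (log2 fold change −0.49, adjusted p = 0.013), AURKB (−0.34, adjusted p = 0.020) and ANLN (−0.28, adjusted p = 0.023), which were lower in the libraries labelled GapC9, and MKI67 (0.30, adjusted p = 0.047), which was higher. With the replicate number added as a block to the GC correction, none of the 4 passed (limma adjusted p = 0.065 for PKMYT1, 0.073 for AURKB, 0.080 for ANLN and 0.074 for MKI67). The block also leaves fewer degrees of freedom for the spread, so failing to pass with it decides nothing about the 4. With the GC correction the size of the difference shrank for PKMYT1 and AURKB and grew for MKI67 and ANLN. CCNA2 remained at 0.62 (limma adjusted p = 0.14), whereas CDC20 came to −0.13 and CDK1 to 0.093.

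**Figure D4:**
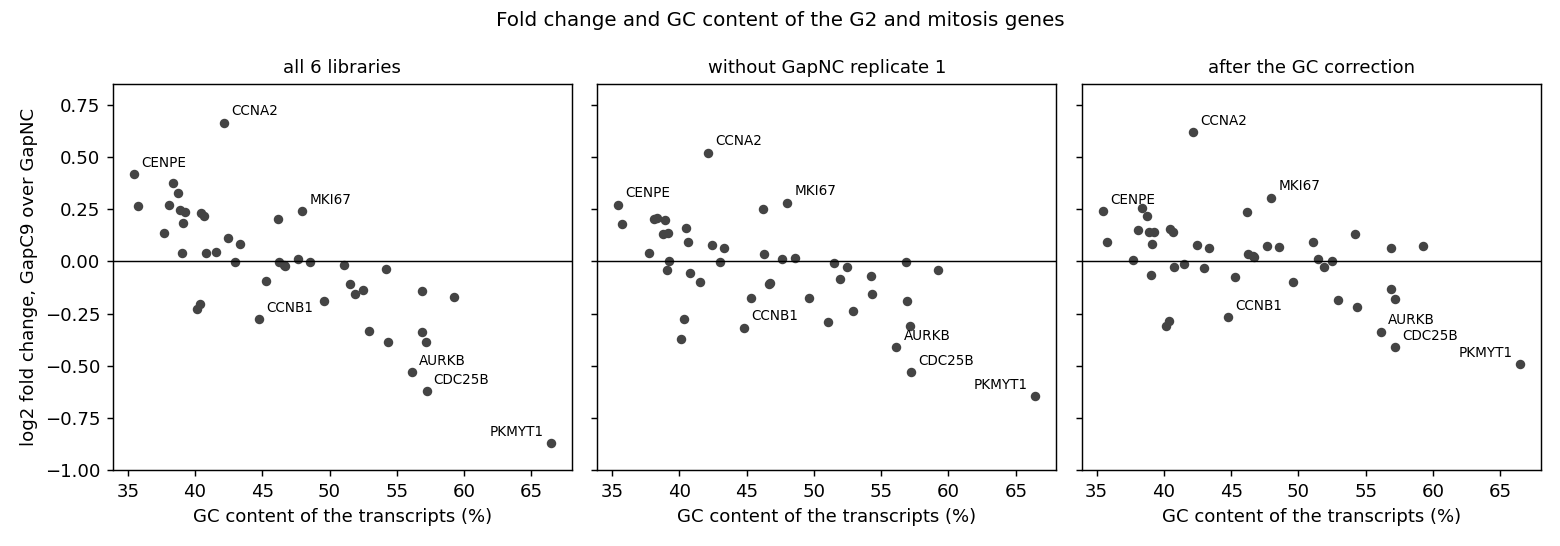
Log2 fold change of the 44 members (GapC9 over GapNC) against the GC content of their transcripts, shown for all 6 libraries, then leaving out GapNC replicate 1, then with GC content corrected. The downward slope is steepest with all 6 libraries (Spearman's correlation −0.785) and lessens to −0.596 and −0.468, with CCNA2 and MKI67 above it in each panel.

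The genes that act beside the members were taken from lists written by role, with 90 rows tested, of which 2 were higher and 4 lower at an adjusted p under 0.05. This is 6.67%, against 6.99% of all rows, a share at the background. Of the 12 genes of the G2 checkpoint, which stops damaged cells before mitosis, 1 rose and 1 fell. Together they are 16.7%, against 6.99% of all rows, a share that rests on 2 genes. The lowest log2 fold change of the 12 was −3.65, in a gene that did not pass. CDKN1A, the p53 target that inhibits cyclin-dependent kinases, had 96.2, 83.1 and 86.0 FPKM in GapNC and 149, 142 and 152 FPKM in GapC9. The groups stood far apart and the gene rose by 0.74 ± 0.088 on the log2 scale (limma, SE, adjusted p = 0.017). CDC25A, the phosphatase that CHEK1 marks for destruction, had 14.5, 15.0 and 15.6 FPKM in GapNC and 8.78, 8.64 and 8.83 FPKM in GapC9. It fell in all libraries labelled GapC9, with a log2 fold change of −0.77 ± 0.088 (limma, SE, adjusted p = 0.017). CDC25A and the member CDC25B both lay lower, but CDC25B did not pass and the 95% interval of CDC25C ran from −0.38 to 0.33.

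Among 50 other kinetochore and cohesion genes, 1 rose and 3 fell (8.0%, near the 6.99% of all rows). MIS12, a subunit that links the centromere to the outer kinetochore, had 1.31, 1.08 and 1.246 FPKM in GapNC and 3.87, 5.83 and 6.54 FPKM in GapC9. The groups stood apart with a ratio of means of 4.46, and the log2 fold change was 2.04 ± 0.22 (limma, SE, adjusted p = 0.016). CENPI, of the inner kinetochore, had 2.73, 3.41 and 4.31 FPKM in GapNC and 1.20, 1.37 and 1.46 FPKM in GapC9 (log2 fold change −1.29, limma adjusted p = 0.026). MAD1L1, the partner of MAD2L1 in the checkpoint, fell by 0.81 on the log2 scale (limma adjusted p = 0.034). RACGAP1, which acts with ECT2 in cytokinesis, fell by 0.55 (limma adjusted p = 0.043). It did not pass under median scaling (limma adjusted p = 0.077), quantile normalization (0.061), limma without trend (0.067) or no filter (0.066). After the GC correction it did pass (0.025). MAD1L1 did not pass without a filter (limma adjusted p = 0.056). MAD2L1 and ECT2 themselves did not pass. With 1 library left out at a time, MIS12 passed in 2 of 6 fits, CDKN1A, CDC25A, CENPI and MAD1L1 in 1 each, and RACGAP1 in 0, with the same sign in each. Such fits also leave fewer degrees of freedom for the spread, so failing to pass in them decides nothing about a gene.

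Of the 16 genes of the APC/C, which CDC20 activates, 0 passed, with 8 log2 fold changes above 0 and 8 below. Of 12 MuvB and DREAM regulators, which act on CHR promoters, also 0 passed by limma, with 4 lower at an unadjusted p under 0.05 (33.3%, against 16.8% of all rows). Of these 12, 11 were below 0 (91.7%, against 56.4% of all rows), with a median of −0.28 (−0.14, with 10 below, under median scaling). For comparison, 3 of 41 genes of DNA replication fell (7.32%, against 5.1% of all rows), namely GINS4, POLA1 and RFC5, with log2 fold changes of −1.04, −1.004 and −0.50. Each of them passed in 1 of 6 fits with 1 library left out, the fit without GapNC replicate 1, and RFC5 had an adjusted p of 0.067 by limma under median scaling. Among 17 G1 cyclins, kinases and RB family genes CDK2 fell by 0.63 beside the rise of CDKN1A (11.8% passing, against 6.99% of all rows). CDKN1A stands on this list and on that of the G2 checkpoint. CDK2 passed in 0 of 6 such fits (limma adjusted p 0.057 to 0.15) and not under median scaling (0.079), quantile normalization (0.073), limma without trend (0.062), no filter (0.068) or the GC correction (0.054). The medians of the lists were −0.12 and −0.24. The first became 0.029 under median scaling, and no difference between these lists and the members was tested.

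**Figure D5:**
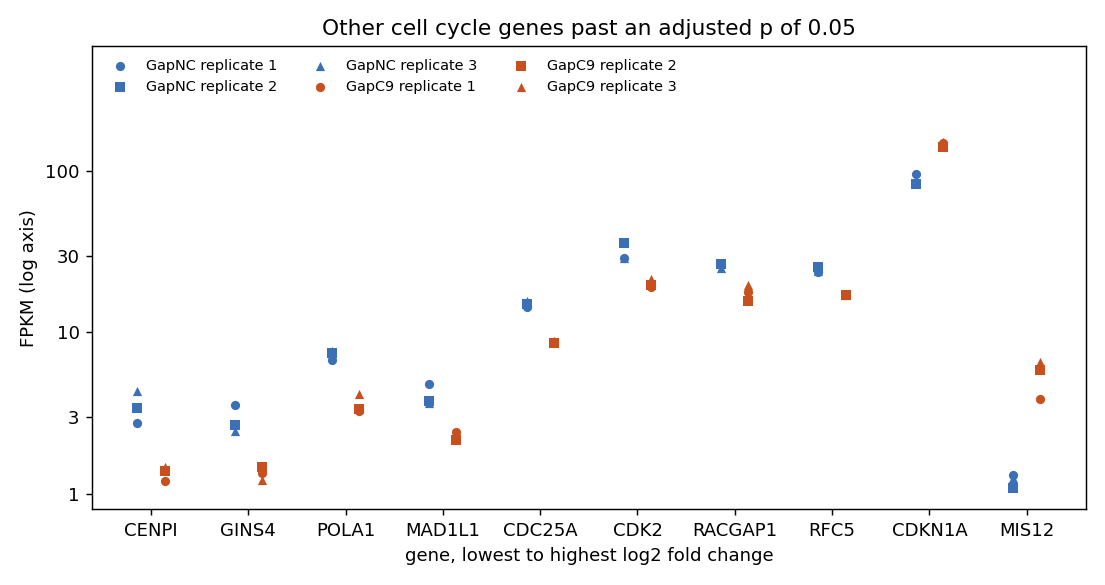
FPKM (log axis) in each library of the 10 genes from the other lists past an adjusted p of 0.05, from the lowest to the highest log2 fold change, with GapNC in blue and GapC9 in orange. The colors do not overlap for any of the 10, with CDKN1A and MIS12 higher in GapC9 and the other genes lower.

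Shared sequence limits some single values. Exons of another gene overlapped those of 14 members on the other strand and of 4 on the same strand, and 13 members have annotated pseudogenes or near copies, with 26 members in at least 1 of these classes. UBE2C has 4 such copies, and PTTG1 shares its sequence with PTTG2 and PTTG3P. Fragments of such genes could have been split or pooled before the values were deposited, and the sources used here do not say how they were assigned.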

How the data were processed

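RNA-seq of 3 GapNC and 3 GapC9 libraries of HCT-116 cells was examined. The submitters' processing notes name Bowtie 0.12.2, HISAT2 2.0, StringTie 1.3.0 and the build mm8, which is a mouse build; the human build and the use of strand are not given in the sources used here. The authors deposited FPKM values from StringTie, with annotation columns and without counts, and the values were used as deposited. A rise in abundant RNAs lowers the FPKM of all others. The 6 FPKM columns were matched to samples by name, with 0 columns left unused.

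In R 4.3.3, limma 3.58.1 (lmFit, eBayes with trend) was fitted to log2(FPKM + 0.1) of the 16028 rows whose mean reached 0.1 FPKM. All 6 libraries entered 1 fit, with Benjamini-Hochberg adjustment. Fold changes on this scale understate those of low genes. The authors' own calls were made with edgeR, which was not run here because it takes counts. GC content, taken from GENCODE release 29 for 99.3% of these rows, was corrected by lowess (span 0.3) on each library's deviation as an alternative. Other alternatives were pseudocounts of 1 and 0.01, other filters, median and quantile scaling, other variance models, a replicate block and each library left out. The counting error of single values is unknown. In simulated data with 16028 rows, the test recovered 39 of 108 rows changed by 1 on the log2 scale and 77 of 92 changed by 2, and called 4 unchanged rows. The simulated noise was independent between rows and held no GC trend, so these counts need not carry over to the deposited values.

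The members and lists were chosen with earlier results of these data known. FPKM in each library is given for members past either threshold, for the member with the largest fold change and that with the highest level in each role, for CDK1, CCNB1, PLK1, TOP2A, MKI67 and FOXM1, and for members listed at 0 or in rows that join several genes. Genes of the other lists are named where they passed the adjusted threshold.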

Additional observations from a re-analysis of the deposited data

How the results depend on the processing

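No member passed an adjusted p of 0.05 in either direction under other pseudocounts, filters, variance models, median or quantile scaling or the replicate block, and the GC correction brought 1 higher and 3 lower. Leaving out 1 library at a time gave 0 higher and 0 to 1 lower, the latter PKMYT1 without GapNC replicate 1. By ratio and unadjusted p the count lower was 0 to 1, again PKMYT1, without GapNC replicate 2 or 3. The median log2 fold change of the members was −0.029 to 0.012 with 1 library left out, 0.14 under median scaling and 0.057 under quantile normalization. Whether replicate numbers shared by the groups mark pairs is not given in the sources used here. Deviations of same-numbered libraries correlated at 0.097, 0.040 and 0.024, and those of differently numbered libraries at −0.093 to 0.058. The highest of the latter was GapC9 replicate 2 with GapNC replicate 3. All of these values are small, and they do not settle whether the libraries were paired. With the replicate block and the GC correction together, 0 members passed. With the replicate block, 0 genes of the other lists and of the comparison lists passed in either direction, with or without the GC correction. CDC25A, CDKN1A, CENPI, MIS12 and POLA1, which passed without the block, then shared an adjusted p of 0.061 by limma (no GC correction). The block leaves fewer degrees of freedom for the spread, so these counts of 0 cannot decide whether a gene differed.

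For the other genes of the pathway (2 higher, 4 lower of 90) the counts were 7 higher and 11 lower after the GC correction. That correction also raised the share of all rows passing, from 6.99% to 15.3% (7.23% higher and 8.1% lower). Under median scaling 4 of these genes were higher, where all rows gave 483 higher and 427 lower, and without a filter 2 were lower. With 1 library left out they were 0 to 2 higher and 0 to 4 lower, and only removing GapNC replicate 1 kept both counts. Fits without a library also have fewer degrees of freedom for the spread. For the comparison lists (1 higher, 4 lower) the counts were 3 higher and 5 lower after the GC correction, where 15.3% of all rows passed. Under median scaling 2 were higher and 2 lower. Under quantile normalization, without a filter and without the trend, 2 were lower. With 1 library left out the counts were 0 to 1 higher and 0 to 4 lower. The cause was not tested.

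In all, 17 members changed sign somewhere, with log2 fold changes from −0.17 (INCENP) to 0.081 (NEK2) on the unscaled values. After the GC correction, with or without the block, the values were 0.020 for CDC25C, −0.012 for WEE1, 0.025 for TPX2, 0.074 for INCENP, 0.091 for CDCA8, 0.13 for BUB1B, 0.012 for UBE2C, 0.036 for PTTG1, 0.065 for ESPL1, −0.029 for NDC80, −0.064 for NUF2, 0.069 for NCAPH and 0.0019 for NCAPD2. Under median scaling they were 0.052 for CCNB2, 0.12 for CDC25C, 0.13 for TPX2 and for CDCA8, 0.11 for BUB1B, 0.14 for BUB3, PTTG1 and NCAPH, 0.038 for UBE2C, 0.0043 for ESPL1 and 0.0087 for NCAPD2. Under quantile normalization they were 0.10 for CDC25C, 0.0020 for CDCA8, 0.018 for BUB1B, 0.057 for BUB3, 0.015 for PTTG1 and 0.056 for NCAPH. With 1 library left out, the ranges were −0.18 to 0.00030 for CCNB2, −0.11 to 0.075 for CDC25C, −0.10 to 0.13 for WEE1, −0.12 to 0.15 for TPX2, −0.025 to 0.23 for NEK2, −0.29 to 0.24 for CDCA8, −0.076 to 0.013 for BUB1B, −0.037 to 0.017 for BUB3, −0.059 to 0.037 for PTTG1, −0.057 to 0.11 for NDC80, −0.040 to 0.11 for NUF2, −0.066 to 0.079 for NCAPH and −0.048 to 0.074 for PRC1.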
